A study of Homo sapiens with 6 samples.

Results

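The IKK kinases, the kinases that act on them and the linear ubiquitin ligase were described here through 10 genes. These were MAP3K7, MAP3K14, CHUK, IKBKB, IKBKG, TBK1, IKBKE, RNF31, RBCK1 and SHARPIN. They were chosen by symbol as known components of these complexes, while earlier results of these data were at hand. All 10 symbols were found among the 23290 genes of the deposited table. RNA came from U87, an established human glioblastoma line. The shC8 group held 3 cultures infected with the retroviral shC8 vector, which silences Caspase-8, and the shCTR group held 3 cultures infected with a retroviral scramble vector. Both groups therefore carried a retroviral vector, and both were grown in DMEM with serum. The series calls the 3 samples of a group biological replicates. The sources used here do not say how the cultures were separated or how many hairpins were used, so a p-value covers only the spread seen between these 6 samples. Bulk RNA cannot tell apart a change in every cell from a change in the share of cells that express a gene.

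In the best-known NF-kB pathway, an activated receptor such as the tumour necrosis factor receptor gathers adaptors and ubiquitin ligases, and the ubiquitin chains made there recruit kinases. TAK1, the product of MAP3K7, is one of them and phosphorylates the IKK complex, which consists of the kinases IKK-alpha (CHUK) and IKK-beta (IKBKB) and the ubiquitin-binding scaffold NEMO (IKBKG). IKK then marks the inhibitor of NF-kB for destruction. The linear ubiquitin ligase, made of the catalytic subunit HOIP (RNF31) with HOIL-1 (RBCK1) and SHARPIN, attaches the chains that NEMO binds. TBK1 and IKK-epsilon (IKBKE) are related kinases known for the interferon response, and NIK (MAP3K14) starts the alternative pathway by activating IKK-alpha. Caspase-8 is a protease recruited to some of the same receptor complexes, and the study's title links it to NF-kB activity in glioblastoma. The genes were therefore compared between silenced and control cells.

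The table gave FPKM, fragments scaled by transcript length and by the mapped fragments of the library, so levels can be set side by side between genes. Columns summed to between 489055 and 516634 FPKM. The number of reads behind a value is unknown. Judged by the most common ratio among the lowest values, the other 5 libraries had between 1.09 and 1.19 times the depth of shCTR 1. CASP8, the targeted gene, was at 4.43 ± 0.0353 FPKM in shC8 and at 14.5 ± 0.937 FPKM in shCTR (SD, n = 3 each), which is 30.6% of the shCTR mean. Its log2 change was -1.51 (SE 0.0705, limma adjusted p = 0.000206), and an exact two-sided permutation test gave p = 0.1, the smallest that 3 against 3 libraries allow. Of 12 glial and glioblastoma markers, 5 averaged at least 1 FPKM (VIM, NES, CD44, FN1 and CHI3L1). The lineage markers GFAP, S100B, OLIG2, SOX2, FABP7 and PROM1 averaged under 1 FPKM, and AQP4 was listed at 0 in all 6 libraries, so the label rested on general mesenchymal and glioma markers. The summed level of the list, most of it VIM, was 4090 to 4607 FPKM in shC8 and 4363 to 5360 FPKM in shCTR. Within it CD44 fell to 269 FPKM in shC8, against 366 FPKM in shCTR (log2 change -0.45, limma adjusted p = 0.0131), and kept its call whichever library was left out. NES rose to 11.1 FPKM in shC8, against 6.95 FPKM in shCTR (log2 change 0.60, limma adjusted p = 0.0293), a call kept in 2 of 6 fits without 1 library. VIM, FN1 and CHI3L1 did not pass. Of 7 leukocyte markers only CD68, a lysosomal protein gene that is also made outside macrophages, averaged at least 1 FPKM, and AIF1 and CD3E were listed at 0 throughout. The leukocyte sum, nearly all of it CD68, was 136 to 152 FPKM in shC8 and 149 to 157 FPKM in shCTR. Of 5 endothelial markers KDR averaged at least 1 FPKM, with sums of 1.72 to 2.27 FPKM in shC8 and 2.43 to 2.84 FPKM in shCTR. Of 4 epithelial markers KRT18 did so, with sums of 2.90 to 3.83 FPKM in shC8 and 2.16 to 2.45 FPKM in shCTR. KRT18 itself rose, at 1.68 FPKM in shC8 and 0.740 FPKM in shCTR (log2 change 0.63, limma adjusted p = 0.0212), also kept in 2 of 6 such fits, and KDR did not pass (adjusted p = 0.0853). The part of these markers in the results that follow was not tested.

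The promoter of RBCK1, the member with the largest change, is shown as an example. The window is a RefSeq promoter of build GRCh38.p14, running from 250 bases before to 50 bases after an annotated start, 5′ to 3′ along the gene's strand. Capitals mark matches to CCGGAAGT, the core bound by ETS factors, and to GAAANNGAAA, the element bound by interferon regulatory factors, each searched on both strands. The matches do not overlap one another. The window lies on the plus strand at chr20:408049-408348.
RBCK1: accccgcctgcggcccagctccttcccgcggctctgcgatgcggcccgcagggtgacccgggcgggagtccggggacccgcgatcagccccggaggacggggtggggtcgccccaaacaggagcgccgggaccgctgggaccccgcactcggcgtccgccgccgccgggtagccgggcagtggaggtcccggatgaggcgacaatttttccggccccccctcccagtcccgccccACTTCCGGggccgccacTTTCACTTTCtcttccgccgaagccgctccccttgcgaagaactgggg

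Windows were found for 8 of the 10 members, 12 windows in all, and not for IKBKB or SHARPIN. The ETS core was in 5 of the 12 windows, and 5 members held it: RBCK1, IKBKG, CHUK, TBK1 and MAP3K7. The core was found in 4.14% of all 35116 RefSeq windows of this length and in 7.72% of the 12244 windows of tested genes. It stood close to the annotated start of the matching window in each of the 5, beginning between 45 and 2 bases before it. Where the core stands in windows of other genes was not computed. IKBKG also has windows at other annotated starts, and these held no ETS core. The sites of 4 of them are given with 10 bases on each side, along the strand on which the core reads, to show how far they resemble each other outside the capitals that mark it.
RBCK1: agtggcggccCCGGAAGTggggcgggac
CHUK: gcagcggttaCCGGAAGTgacgcattca
TBK1: gcttgcgaagCCGGAAGTgtcctgagtc
MAP3K7: cagcccggaaCCGGAAGTgtagtgggcg
These stand at chr20:408274-408301 (minus strand), chr10:100229624-100229651 (minus), chr12:64452108-64452135 (plus) and chr6:90587082-90587109 (minus). The interferon element GAAANNGAAA was found in windows of RBCK1 and RNF31. It was in 3.57% of all windows and in 2.95% of those of tested genes. The NF-kB consensus was found in none of the 12 member windows. It was in 11.3% of all windows and in 13% of those of tested genes. A match is a run of letters and not a measured binding site, and its part in any change described below was not tested.

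Of the 10 members, 2 rose in shC8 (IKBKG and RBCK1), none fell and 8 did not pass. The test was limma's moderated test on log2(FPKM + 1), two-sided, over the 11598 genes that averaged 1 FPKM or more, and all 10 members were among them. Calls were made at an adjusted p under 0.05 (Benjamini-Hochberg). Among all tested genes 12.1% were called, 7.14% higher and 4.94% lower. The members' share of 20% stands for 2 genes, and its difference from that background was not tested. At an unadjusted p under 0.05 the same limma fit gave 2 members higher and 0 lower, where 29.7% of all tested genes passed, 18.3% higher and 11.4% lower. The median log2 change of the members was 0.08, beside 0.04 over all tested genes. Values of the 2 groups did not overlap for 3 members (IKBKG, RBCK1 and SHARPIN), all higher in shC8. Over all tested genes this held for 34.8%, with shC8 above shCTR for 21.7% and below it for 13.1%. With the replicate number as a block the same 2 members were called, beside 26.6% of all tested genes.

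**Figure D1:**
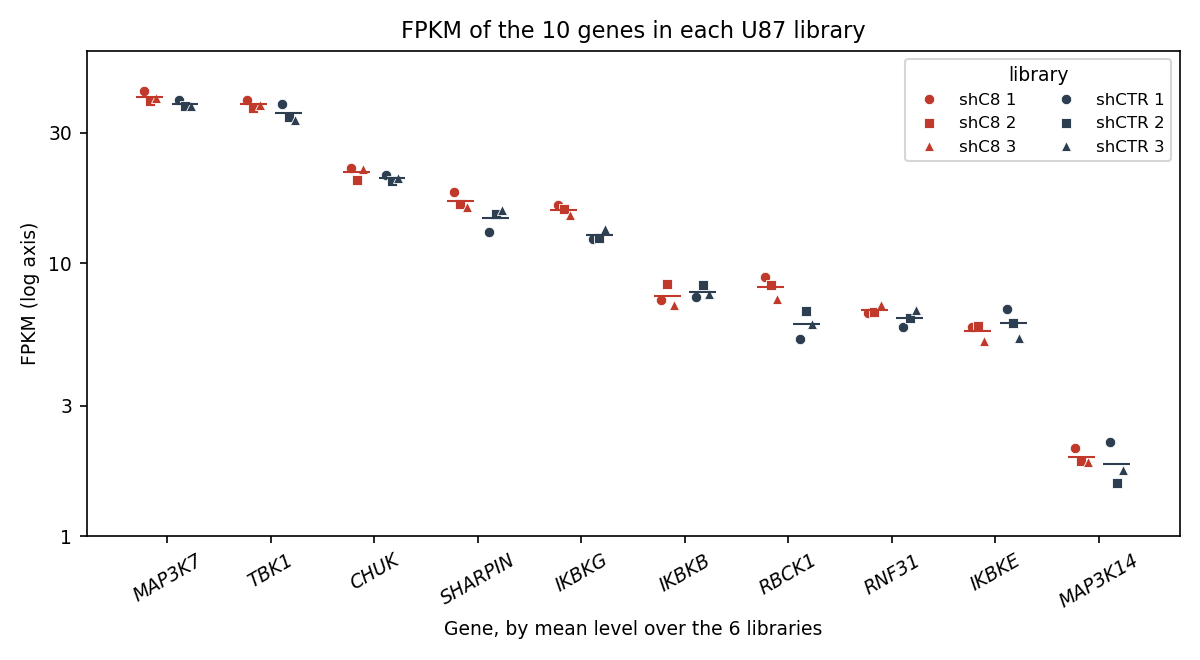
FPKM (log axis) of the 10 genes in each library, shC8 in red left of shCTR in dark blue. Marker shapes give the replicate number and lines the group means. Levels run between 1.57 FPKM (MAP3K14) and 42.9 FPKM (MAP3K7), and the groups stand apart for SHARPIN, IKBKG and RBCK1.

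The kinase TAK1, encoded by MAP3K7 (minus strand of chromosome 6, 90513573 to 90587045, GRCh38), was the most abundant of the 10 transcripts. Its FPKM was 42.9, 39.2 and 40.1 in shC8 1, 2 and 3, and 39.6, 37.8 and 37.8 in shCTR 1, 2 and 3. Library shCTR 1 lay above shC8 2, so the groups overlapped. The log2 change was 0.08 with a 95% interval of -0.06 to 0.23 (limma adjusted p = 0.404).

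NIK, encoded by MAP3K14 (minus strand of chromosome 17, 45263119 to 45317145), was the least abundant, and the protein is known to be held low by constant degradation in resting cells. It stood at 2.10, 1.88 and 1.87 FPKM in shC8 and at 2.21, 1.57 and 1.75 FPKM in shCTR. The highest and the lowest value were both in shCTR. The log2 change was 0.06 with an interval of -0.19 to 0.31 (limma adjusted p = 0.755), the widest interval among the members. An antisense gene, MAP3K14-AS1, overlaps it and was at 0.227 to 0.496 FPKM in shC8 and at 0.27 to 0.574 FPKM in shCTR.

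The 2 catalytic IKK subunits differed in level more than between the groups. CHUK, on the minus strand of chromosome 10 (100188298 to 100229619), was at 22.3, 20.2 and 22.2 FPKM in shC8 and at 21.0, 20.0 and 20.5 FPKM in shCTR. IKBKB, on the plus strand of chromosome 8 (42271302 to 42332653), was at 7.31, 8.42 and 7.04 FPKM in shC8 and at 7.51, 8.30 and 7.70 FPKM in shCTR. In both groups replicate 2 was the highest for IKBKB and the lowest for CHUK. Their log2 changes were 0.07 (interval -0.08 to 0.22, limma adjusted p = 0.51) and -0.04 (interval -0.24 to 0.15, limma adjusted p = 0.769).

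IKBKG, the gene of the scaffold NEMO, rose in shC8. It is on the plus strand of chromosome X (154541199 to 154565046). It was at 16.3, 15.9 and 15.0 FPKM in shC8 and at 12.3, 12.4 and 13.4 FPKM in shCTR. Every shC8 library lay above every shCTR library. The means were 15.7 ± 0.631 FPKM in shC8 and 12.7 ± 0.598 FPKM in shCTR (SD, n = 3 each), 1.24-fold higher in shC8. The log2 change was 0.29 (SE 0.0656, limma adjusted p = 0.032). In same-numbered libraries the difference was 0.38, 0.33 and 0.16. The call ended without shC8 1 (adjusted p = 0.06), shC8 2 (0.101), shC8 3 (0.0697), shCTR 1 (0.0972) or shCTR 2 (0.0986), while the log2 change stayed between 0.27 and 0.33 over the 6 fits without 1 library.

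Reads of IKBKG may be shared. Its longest coding transcript (2299 bases) has a stretch of 1073 bases that is 100% identical to the pseudogene IKBKGP1, and the table has no row of that name. The libraries were stranded per the labels' protocols, but whether counting used strand is not given in the sources used here. How far IKBKGP1 takes part in the IKBKG value was not tested.

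**Figure D2:**
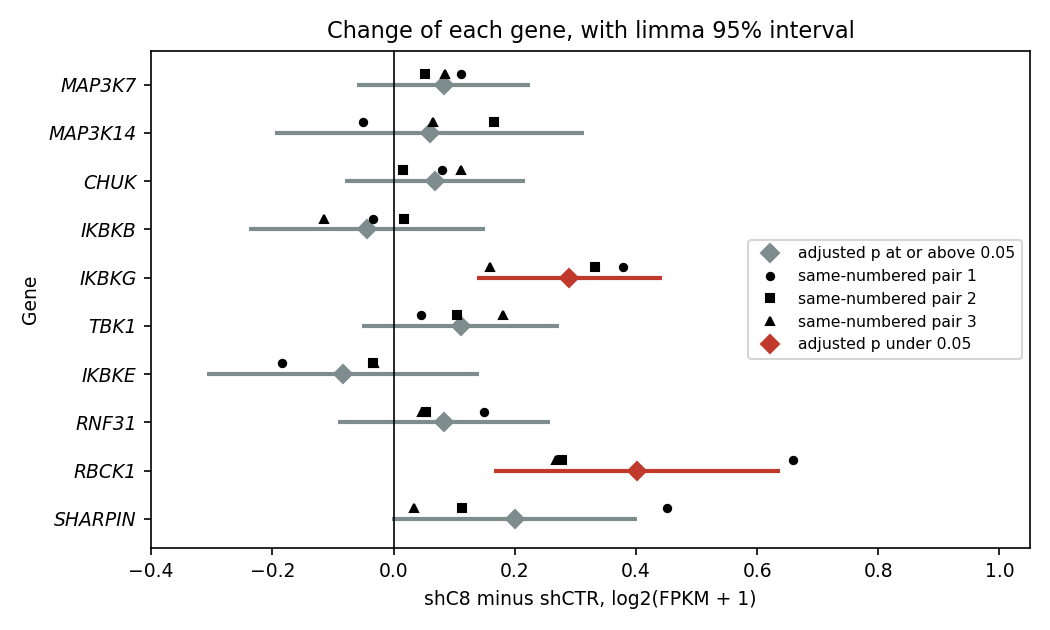
Difference between shC8 and shCTR on log2(FPKM + 1) for each gene (diamond) with limma's 95% interval (bar), red where the adjusted p was under 0.05. Black marks give the difference in each pair of same-numbered libraries. The intervals of IKBKG and RBCK1 lie above 0, and pair 1 has the largest difference for IKBKG, RBCK1 and SHARPIN.

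The related kinases TBK1 and IKK-epsilon lay far apart in level. TBK1, on the plus strand of chromosome 12 (64451880 to 64502108), was at 39.5, 37.0 and 38.1 FPKM in shC8 and at 38.2, 34.3 and 33.5 FPKM in shCTR. It was higher in shC8 in all 3 same-numbered pairs, yet shCTR 1 lay above shC8 2 and 3, and the log2 change of 0.11 (interval -0.05 to 0.27, limma adjusted p = 0.331) did not pass. IKBKE, on the plus strand of chromosome 1 (206470476 to 206496889), is known as the inducible member of this kinase pair. It was at 5.85, 5.89 and 5.19 FPKM in shC8 and at 6.78, 6.05 and 5.32 FPKM in shCTR. It was the only member lower in shC8 in all 3 pairs, by 0.18, 0.03 and 0.03 on the log2 scale, and the groups overlapped. Its log2 change was -0.08 (interval -0.31 to 0.14, limma adjusted p = 0.6).

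RBCK1, which encodes the linear ubiquitin ligase subunit HOIL-1, had the largest change of the 10. It is on the plus strand of chromosome 20 (407498 to 430966). It was at 8.88, 8.35 and 7.40 FPKM in shC8 and at 5.26, 6.71 and 5.97 FPKM in shCTR. The groups did not overlap, and the gap between shC8 3 and shCTR 2 was smaller than the spread within either group. The means were 8.21 ± 0.748 FPKM in shC8 and 5.98 ± 0.726 FPKM in shCTR (SD, n = 3 each), 1.37-fold higher in shC8. The log2 change was 0.40 (SE 0.101, limma adjusted p = 0.0434).

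The call of RBCK1 was close to the threshold. It ended whichever library was left out, with adjusted p = 0.0877 without shC8 1, 0.121 without shC8 2, 0.0656 without shC8 3, 0.119 without shCTR 1, 0.0503 without shCTR 2 and 0.0956 without shCTR 3. It also ended without the filter on low values (limma adjusted p = 0.091), with quantile-normalized values (0.0568) and with median-of-ratios scaling (0.0583). The log2 change lay between 0.33 and 0.48 over the 14 alternatives. Each column name ends in a number that nothing in the labels explains, and these numbers form a low set (shC8 1, shCTR 1 and shCTR 3) and a high set (shC8 2, shC8 3 and shCTR 2). The RBCK1 change was 0.58 in the low set and 0.20 in the high set, while the IKBKG change was 0.32 and 0.30. With the set as a term in the fit, the adjusted p was 0.071 for RBCK1 and 0.036 for IKBKG.

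The other subunits of the ligase did not pass. RNF31, which encodes the catalytic subunit HOIP, is on the plus strand of chromosome 14 (24146683 to 24160661). It was at 6.59, 6.60 and 7.01 FPKM in shC8 and at 5.84, 6.32 and 6.75 FPKM in shCTR. The groups overlapped because shCTR 3 lay above shC8 1 and 2. Its log2 change was 0.08 (interval -0.09 to 0.26, limma adjusted p = 0.494). RNF31 shares 1732 identical bases with AL136295.5, an annotated gene over the same stretch and strand that has no row in the table, so its reads could be split.

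SHARPIN, which encodes the third subunit, lies on the minus strand of chromosome 8 (144098633 to 144108124). It was at 18.2, 16.5 and 16.1 FPKM in shC8 and at 13.0, 15.1 and 15.7 FPKM in shCTR. The groups did not overlap, but shC8 3 and shCTR 3 were nearly level. The log2 change was 0.20 with an interval of -0.00278 to 0.402 (limma adjusted p = 0.173). In same-numbered pairs the difference was 0.45, 0.11 and 0.03, so pair 1 held most of it. SHARPIN overlaps MAF1, a gene on the opposite strand for a repressor of RNA polymerase III, over 3113 bases. MAF1 was at 45.5, 41 and 40.5 FPKM in shC8 and at 37.4, 38.2 and 39.4 FPKM in shCTR, and it did not pass either (log2 change 0.14, limma adjusted p = 0.208). The part of these reads in the SHARPIN value was not tested.

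By mean FPKM over the 6 libraries the order of levels was MAP3K7 (39.6), TBK1 (36.8), CHUK (21.0), SHARPIN (15.8), IKBKG (14.2), IKBKB (7.71), RBCK1 (7.10), RNF31 (6.52), IKBKE (5.85) and MAP3K14 (1.90). MAP3K7 exceeded TBK1 within each of the 6 libraries, although their ranges overlapped, and likewise SHARPIN over IKBKG. TBK1 and CHUK, CHUK and SHARPIN, IKBKG and IKBKB, and IKBKE and MAP3K14 had ranges that did not meet. IKBKB, RBCK1, RNF31 and IKBKE formed a group of neighbours whose ranges overlapped, with IKBKB above RBCK1 in 4 of 6 libraries, RBCK1 above RNF31 in 4 and RNF31 above IKBKE in 5. RBCK1 ranked 6 of 10 by mean FPKM in shC8 and 9 of 10 in shCTR. The median over all tested genes was 12.3 FPKM, so 5 members lay above it.

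**Figure D3:**
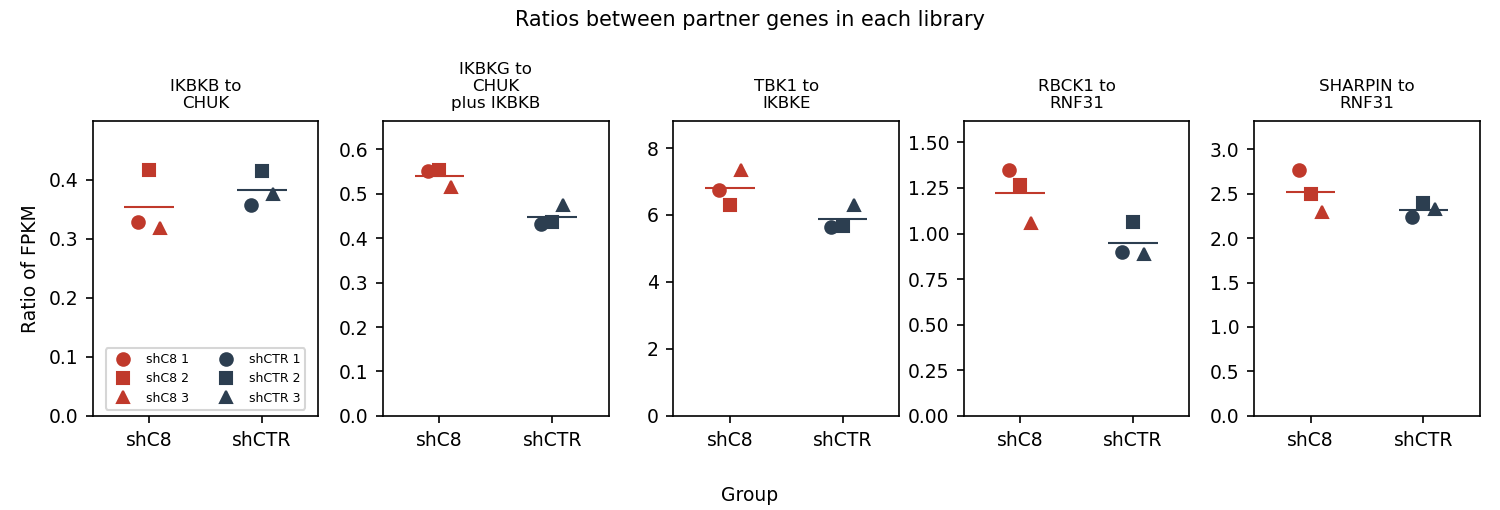
Ratio of FPKM between partner genes in each library, shC8 left of shCTR, with lines at the group means and axes that start at 0. The groups do not overlap for IKBKG over CHUK plus IKBKB, nor for TBK1 over IKBKE. Among single tested genes 34.8% did not overlap, and no such share was computed for ratios.

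Ratios within a library show how the partners moved against each other, and a common scaling of a library cancels in them. They were read as values without a test, and sequence that IKBKG and RNF31 share with other genes may enter them. The FPKM of IKBKG over the sum of CHUK and IKBKB was 0.551, 0.554 and 0.514 in shC8 and 0.431, 0.437 and 0.474 in shCTR. The 2 groups did not overlap. Among single tested genes this held for 34.8%, and no such share was computed for ratios. TBK1 over IKBKE was 6.76, 6.29 and 7.34 in shC8 and 5.64, 5.67 and 6.29 in shCTR, with shC8 2 and shCTR 3 nearly equal. RBCK1 over RNF31 was 1.35, 1.27 and 1.06 in shC8 and 0.90, 1.06 and 0.885 in shCTR, and here shCTR 2 lay just above shC8 3. SHARPIN over RNF31 overlapped between groups, at 2.52 ± 0.236 in shC8 and 2.32 ± 0.0812 in shCTR (SD, n = 3 each). IKBKB over CHUK overlapped as well, at 0.354 ± 0.0542 in shC8 and 0.383 ± 0.0293 in shCTR (SD, n = 3 each).

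Around the members, 74 other genes of the same signalling steps were examined in 6 lists, and 70 of them passed the filter on low values. Of the 70, 5 rose, 3 fell and 62 did not pass, so 11.4% were called, beside 12.1% of all tested genes. Their median log2 change was 0.04, as over all tested genes. With the replicate number as a block, 11 rose and 7 fell, beside 16.1% higher and 10.6% lower over all tested genes. The block counts of each list below are to be read beside these shares. Counts without the block are to be read beside 7.14% higher and 4.94% lower.

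Upstream of TAK1 and IKK, 2 of 19 tested receptor, adaptor and ubiquitin ligase genes rose, 1 fell and 16 did not pass (median log2 change 0.04). TRADD, the adaptor of the tumour necrosis factor receptor, was at 23.7, 21.2 and 22.5 FPKM in shC8 and at 15.8, 15.7 and 14.6 FPKM in shCTR (log2 change 0.52, limma adjusted p = 0.00557). TNFRSF1A, the gene of that receptor, was at 55.7, 50.6 and 53.4 FPKM in shC8 and at 34.4, 35.7 and 41.6 FPKM in shCTR (log2 change 0.51, limma adjusted p = 0.0119). Both kept their call in all 6 fits without 1 library. UBE2V2, which encodes a partner of the enzyme that makes K63-linked chains, was at 89.6, 89.2 and 87.4 FPKM in shC8 and at 115, 105 and 102 FPKM in shCTR (log2 change -0.27, limma adjusted p = 0.0396). Its call ended whichever library was left out, with adjusted p between 0.0553 and 0.131.

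**Figure D4:**
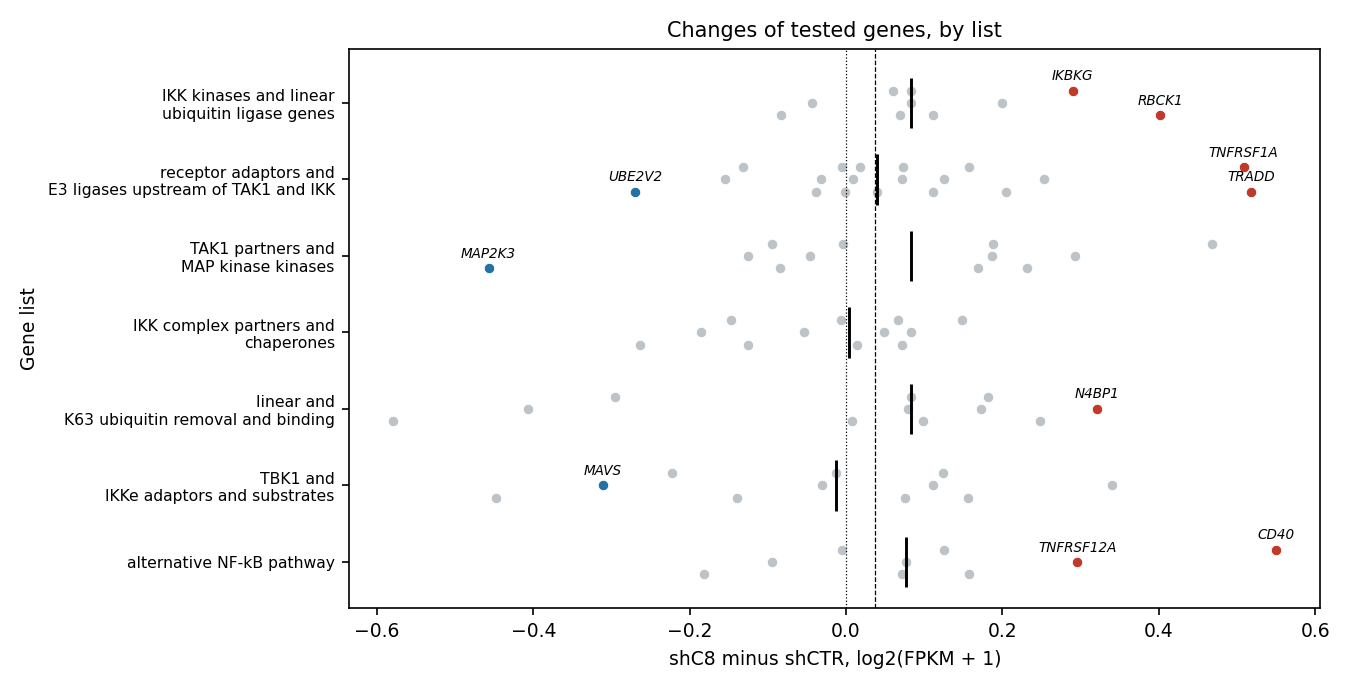
Log2 change of every tested gene in the 10 members (top) and in each of the 6 lists, with called genes in red (higher in shC8) or blue (lower). Solid bars give each list's median and the dashed line the median of all tested genes. Called genes stand on both sides, and the list medians lie between -0.01 and 0.08.

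Among 12 partners of TAK1 and MAP kinase kinases, none rose, 1 fell and 11 did not pass (limma, median 0.08). At an unadjusted p under 0.05, 4 were higher and 1 lower, beside 18.3% and 11.4% of all tested genes. With the replicate block 3 of these genes rose and 1 fell, beside 16.1% higher and 10.6% lower over all tested genes. The one that fell, MAP2K3, encodes an activator of the p38 kinases. It was at 7.67, 8.38 and 9.43 FPKM in shC8 and at 10.4, 13.5 and 12.3 FPKM in shCTR (log2 change -0.46, limma adjusted p = 0.0383). Its call held without shCTR 1 (0.0348) and ended without any other library (adjusted p between 0.0594 and 0.106).

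None of the 12 partners and chaperones of the IKK complex, HSP90 and CDC37 genes among them, passed in either direction (limma, median 0.00). At an unadjusted p under 0.05, 0 of them were higher and 2 lower, against the same 18.3% and 11.4% of all tested genes. With the replicate block 1 fell. Of 11 genes that remove or bind linear and K63-linked ubiquitin, 1 rose and 10 did not pass (median 0.08), with 2 rises and 2 falls under the block. N4BP1, a restraint on NF-kB whose protein Caspase-8 is known to cleave, was at 10.7, 10.9 and 11.1 FPKM in shC8 and at 8.91, 8.47 and 8.22 FPKM in shCTR (log2 change 0.32, limma adjusted p = 0.0204). It kept its call without shC8 1 or shCTR 1, and the adjusted p was 0.0708 without shC8 2, 0.0782 without shC8 3, 0.0685 without shCTR 2 and 0.0611 without shCTR 3.

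Of 11 tested adaptors and substrates of TBK1 and IKK-epsilon, 1 fell and 10 did not pass (median -0.01), with 2 rises and 2 falls under the block. The fall was in MAVS, the mitochondrial adaptor of cytosolic RNA sensing, at 5.55, 5.46 and 6.12 FPKM in shC8 and 7.57, 7.08 and 7.30 FPKM in shCTR (log2 change -0.31, limma adjusted p = 0.034). Its call ended whichever library was left out, with adjusted p between 0.0594 and 0.111. The DNA sensor gene of this list, MB21D1 (now CGAS), was at 0.0181, 0 and 0.0505 FPKM in shC8 and was listed at 0 in every shCTR library. TMEM173 (now STING1), its partner, was at 0.154 to 0.288 FPKM in shC8 and at 0.0168 to 0.238 FPKM in shCTR, so neither passed the filter.

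In the alternative pathway that NIK serves, 2 of 9 tested genes rose and 7 did not pass (median 0.08). Among all tested genes 7.14% rose and 4.94% fell, and the difference from these shares was not tested. CD40, a receptor of that pathway, was at 3.76, 4.63 and 3.95 FPKM in shC8 and at 2.71, 2.34 and 2.42 FPKM in shCTR (log2 change 0.55, limma adjusted p = 0.0138), and it kept its call in all 6 fits without 1 library. TNFRSF12A, the receptor of the cytokine TWEAK, was at 121, 112 and 118 FPKM in shC8 and at 89.1, 94.7 and 102 FPKM in shCTR (log2 change 0.30, limma adjusted p = 0.0374). Its call held without shCTR 3 (0.049) and ended without any other library (adjusted p between 0.0647 and 0.119). The list shares TRAF2, TRAF3, BIRC2 and BIRC3 with the upstream list, and none of these 4 passed.

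**Figure D5:**
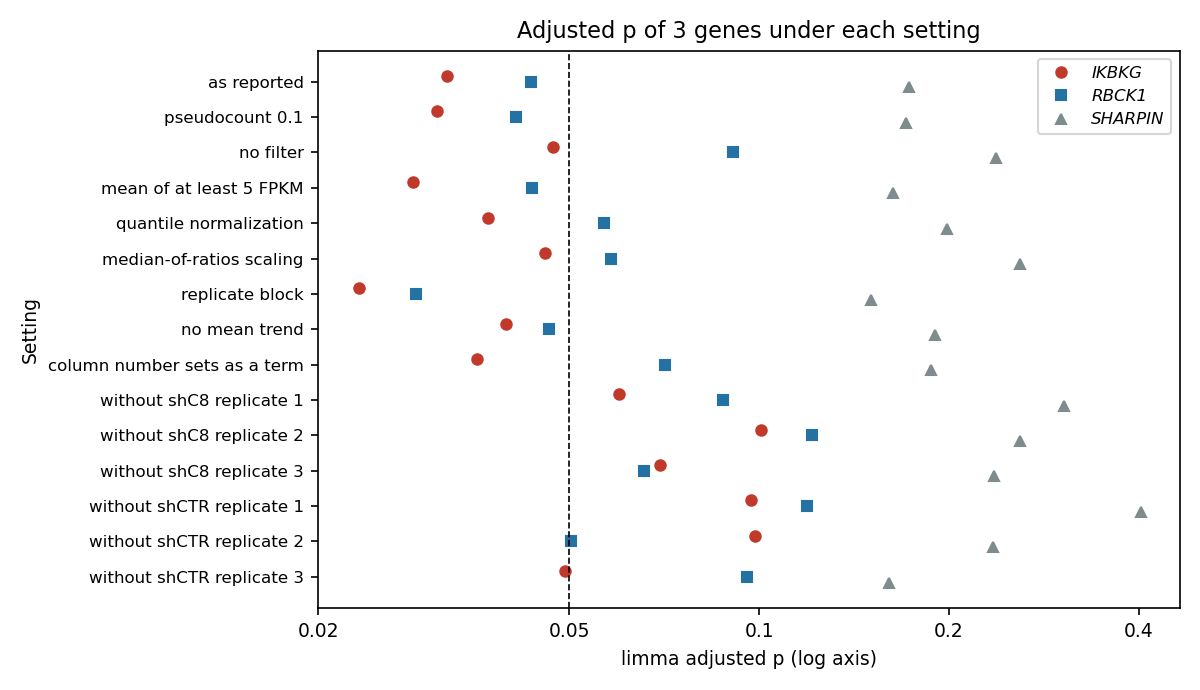
Adjusted p of IKBKG, RBCK1 and SHARPIN (log axis, with a dashed line at 0.05) as reported and under each of 14 alternatives. IKBKG lies under the line in 9 alternatives and RBCK1 in 4, and SHARPIN lies above it in all 14.

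The genes whose log2(FPKM + 1) followed IKBKG most closely over the 6 libraries were FZD2, NEK1 and CTSK, with Pearson's r of 0.997, 0.996 and 0.996. For RBCK1 they were NAT14, BTBD2 and S100A16, with r of 0.997, 0.997 and 0.996. These are descriptions over 6 libraries that fall into 2 groups, and 248 tested genes had an r above 0.95 with IKBKG and 154 with RBCK1.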

How the data were processed

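The authors deposited 1 table of FPKM, with a row per gene symbol and a column per library. The submitters' processing notes name TopHat, Cufflinks, Cuffdiff and hg38, with no version or role for any. The annotation, whether strand was used in counting, and any scaling across libraries are not given in the sources used here. Per the labels' protocols, ribosomal RNA was removed from DNase-treated total RNA before stranded library preparation.

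FPKM holds no counts, so no count model or counting interval was used. Genes averaging 1 FPKM or more were tested on log2(FPKM + 1) with limma 3.58.1 (R 4.3.3) with a mean trend, two-sided, with Benjamini-Hochberg adjustment over all 11598. Fold changes on this scale understate changes of low genes. A "-fold" value is the ratio of the groups' mean FPKM. The script was tested on simulated data for shC8 against shCTR, with 200 of 11598 genes changed. It recovered 51% of changes of 0.5 and 89% of changes of 1 on the log2 scale, and 3.45% of calls were false. The simulated noise was independent between genes, and no change under 0.5 was simulated. These shares may therefore not carry over to the members, whose changes were smaller.

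The members and lists were chosen with earlier results of these data known. The text names CASP8, every member, up to 3 called genes with the largest changes per list, and 3 genes most correlated with each called member. Other genes (markers, genes overlapping members, MB21D1, TMEM173 and genes shared between lists) were named with their values in view. Of 74 list symbols, 3 were matched through older symbols. Positions come from GENCODE 29 (GRCh38, the assembly called hg38). Shared sequence was searched with blastn 2.17.0 at 95% identity over at least 200 bases.

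As a check of pairing, each library's deviations from its group mean were correlated across genes: libraries 1, 2 and 3 of the groups gave 0.397, 0.266 and 0.291. All exceed 0.1, while libraries with different numbers gave between -0.320 and 0.0378. Taking off the group means ties these values together, so positive values for same numbers push the others down. Replicate numbers may therefore pair samples, on the data's word and not a label's. The limma fit behind the reported calls used no block, and the replicate block was run as an alternative. Alternatives were no filter, a minimum mean of 5 FPKM, a pseudocount of 0.1, median-of-ratios scaling, quantile normalization, no mean trend, the replicate block and leaving out each library. A term for the low and high sets of column numbers was added after seeing the data. Some values of genes near the members are not reported here.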

Additional observations from a re-analysis of the deposited data

How the results depend on the processing

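All 10 members kept their direction under every alternative run, except IKBKB, at 0.00237 without shC8 3, and MAP3K14, at -0.014 under quantile normalization and -0.00978 without shCTR 2. Over the fits without 1 library IKBKB lay between -0.112 and 0.00237 and MAP3K14 between -0.00978 and 0.151. The number of members that rose was 1 without a filter, 1 under quantile normalization, 1 under median-of-ratios scaling and 1 with a term for the column number sets, IKBKG in each, and between 0 and 1 without 1 library. None fell under any alternative. With the replicate block 2 members rose, IKBKG (adjusted p = 0.0232) and RBCK1 (adjusted p = 0.0286), so the block changed no member's call. The block gave 1862 higher and 1224 lower among all genes, where 828 and 573 were called without it, and 11 and 7 among the list genes. Without 1 library, all-gene calls lay between 283 and 711 higher and between 239 and 665 lower, and list genes between 3 and 5 higher and between 0 and 2 lower. List genes that fell numbered 0 without a filter and 1 with a term for the column number sets. Of all-gene calls 59.1% were higher, and 43% with median-of-ratios scaling, under which the median change of all genes was -0.01 in place of 0.04. The cause of these differences was not tested, beyond fewer samples where a library was left out. CASP8 stayed called under every alternative, at -1.56 to -1.48 without 1 library. Without 1 library, the log2 difference in the ratio of IKBKB to CHUK (-0.121 with all 6) lay between -0.244, without shC8 2, and -0.0479, without shC8 3. That of SHARPIN to RNF31 (0.116) lay between 0.0466, without shC8 1, and 0.181, without shC8 3. The other 3 ratios lay between 0.243 and 0.313 (IKBKG to CHUK plus IKBKB), 0.154 and 0.265 (TBK1 to IKBKE), and 0.290 and 0.466 (RBCK1 to RNF31). Without known depth, the precision of low genes such as MAP3K14 rests on the spread between 3 libraries a group.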
